A study of Mus musculus with 20 samples.

Results

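Heart was the muscle tissue of a set of 5 mouse tissues in which miRNAs had been measured by DNA chip, and its miRNA profile was set against that of lung, liver, kidney and spleen. All arrays labelled heart were taken, 4 of 20, and the other 16 arrays, 4 for each of the other 4 tissues, stood against them. In every tissue 2 arrays came from klotho(-/-) mice, which lack the hormone co-receptor klotho in the whole body and develop senescence-like features, and 2 came from wild-type littermates. All mice were 5-week-old males, and the arrays of a group came from different individual mice. The chip carried probes for 200 miRNAs, and each array gave 1 fluorescence intensity per probe. Genotype was kept as a covariate, so that each difference below is between tissues at equal genotype, estimated with limma on log2(scaled signal + 50). The scaled signal is the background-corrected intensity, in arbitrary units, after quantile normalization over all 20 arrays, and a miRNA passed the test where its p, adjusted over the 200 probes by Benjamini-Hochberg, was under 0.05.

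The muscle miRNAs, or myomiRs, are a small set that striated muscle cells make in large amounts. miR-1 and miR-133a are processed from shared transcripts in heart and skeletal muscle, where they act on muscle growth and contractility. miR-208 lies in an intron of the gene for the heart's alpha myosin heavy chain and is regarded as cardiac, whereas miR-206 and miR-133b form a pair known mainly from skeletal muscle. A miRNA finds its target mRNAs chiefly through its seed, the bases 2 to 8 from its 5′ end, and miRNAs with equal seeds form families. miRNAs that mark other cell types, such as miR-122 of hepatocytes, the miR-200 family of epithelia and miR-142 of blood cells, stood on the same chip.

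Mature sequences were taken from RefSeq on the mouse build GRCm38.p6 and are written 5′ to 3′ with the seed in capitals, so that members of a family can be recognised. The first set holds miRNAs rich in heart that had an entry, and miR-206, the neighbour of miR-133b in the genome.
miR-133b: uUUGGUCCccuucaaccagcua
miR-208: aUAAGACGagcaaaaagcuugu
miR-99a: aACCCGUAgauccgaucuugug
miR-149: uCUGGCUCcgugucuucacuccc
miR-206: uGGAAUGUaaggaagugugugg

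The second set holds miRNAs that were low in heart, with 1 further member of the miR-15 family and 2 of the 8 let-7 members.
miR-21: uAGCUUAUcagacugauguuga
miR-16: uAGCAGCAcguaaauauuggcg
miR-15a: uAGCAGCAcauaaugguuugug
let-7a: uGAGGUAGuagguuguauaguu
let-7g: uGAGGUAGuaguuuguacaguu
miR-200a: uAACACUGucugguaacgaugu
miR-141: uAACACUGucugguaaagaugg
miR-200b: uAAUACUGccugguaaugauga
miR-194: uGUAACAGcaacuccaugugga
miR-192: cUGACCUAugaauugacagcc

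The 5 sequences of the first set had 5 different seeds. miR-133b (chr1:20682834-20682855, plus strand) and miR-206 (chr1:20679055-20679076, plus strand) began 3779 bases apart on the same strand. Of their probes only that for miR-133b gave signal in heart, as described below. In the second set miR-16 and miR-15a shared the seed AGCAGCA, with 16 of 22 bases equal at the same position, and the 8 let-7 probes with a RefSeq entry all shared GAGGUAG. miR-200a and miR-141 shared AACACUG, with 20 of 22 bases equal. A chip probe may not tell such close members apart, which was not tested. Whether the miR-133b probe also detected miR-133a, which had no entry here, was likewise not tested.

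The summed deposited signal, that is the authors' background-subtracted intensity over all probes, was 21214 to 31237 on the heart arrays, against 25953 to 57568 in lung, 4162 to 10784 in liver, 13158 to 24080 in kidney and 7317 to 12405 in spleen. Between 89 and 108 probes reached a background-corrected intensity of 10, before scaling, on a heart array, against 52 to 113 on the other arrays. The 4 heart arrays resembled each other, with Pearson's r of 0.979 to 0.991 across the 138 probes whose mean signal reached 10 in some tissue. Probes are not independent replicates, and these values are a description. The 4 heart arrays also held the defining heart miRNAs, with miR-1 the brightest probe on each. On the klotho(-/-) Spleen 1 array miR-375, a miRNA of pancreatic islets, had a scaled signal of 294.8, against 7.45 to 13.3 on the other 3 spleen arrays. In heart miR-375 lay between 1.84 and 3.55. The study found its duplicate arrays reproducible apart from those of klotho(-/-) spleen, and proposed individual differences as a possible reason. On the deposited signal miR-143 was the brightest probe on klotho(-/-) Spleen 1 and let-7a on klotho(-/-) Spleen 2, and miR-16 held rank 10 and rank 3 there. The comparisons with spleen below rest in part on these arrays.

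In the mean over 4 tissues, 26 miRNAs were higher in heart (13% of the 200 tested) and 42 were lower (21%). Among the 68 that passed, 38.2% were higher. miR-1, miR-133a and miR-133b occupied the top 3 ranks of each heart array, and quantile normalization gives equal ranks equal values on all arrays. Other bright miRNAs of heart could therefore only take the values of ranks below these 3. When these 3, miR-208 and the liver miRNA miR-122a were left out before normalization (the reduced normalization), 49.2% of the miRNAs that passed were higher in heart. Which of the left-out probes moved this share was not tested. As the share moved, the calls were also read under that reduced normalization and under scaling of each array to an equal median. They were also read under scaling to the probes detected on all arrays. Over all alternative runs, listed at the end, 12 to 32 of the probes tested were higher in heart and 6 to 54 were lower. Of the 26 miRNAs that were higher, 18 passed in the same direction under all 4 scalings that could include them, and of the 42 that were lower, 24 did. A miRNA was called rich in heart where it passed, differed by at least 0.5 on the log2 scale and had all 4 heart arrays above all 16 others. Of 200 miRNAs, 7 were rich (3.5%) and 2 were poor by the mirrored rule (1%). Without the size rule, 9 miRNAs (4.5%) had all 4 heart arrays above the other 16, and 2 (1%) had all below.

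**Figure D1:**
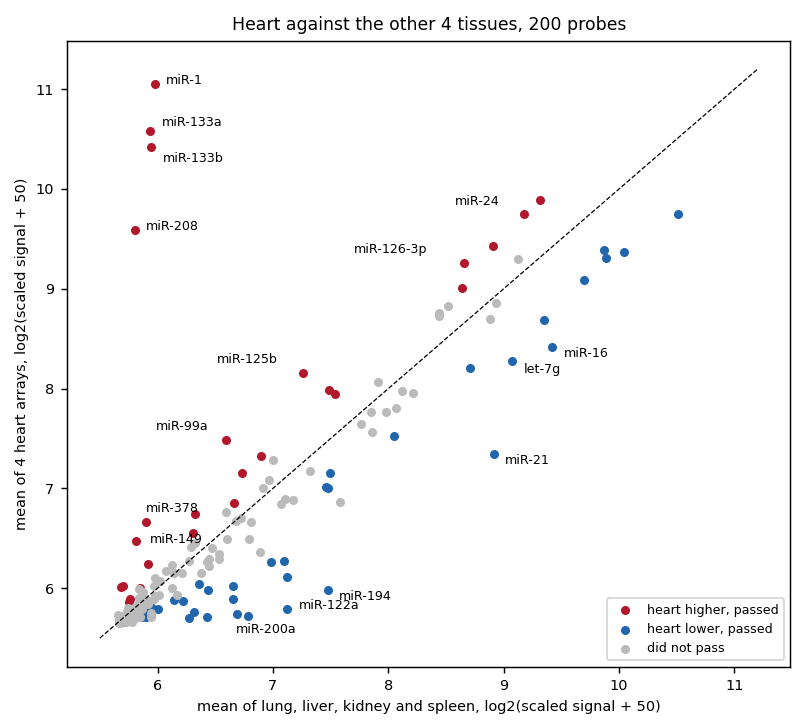
Mean log2(scaled signal + 50) of the 4 heart arrays (vertical axis) against the mean of the lung, liver, kidney and spleen means (horizontal axis) for 200 probes, with the dashed line marking equal levels. Red points are the 26 miRNAs that were higher in heart, blue points the 42 that were lower and grey points the rest, and the 4 muscle miRNAs labelled in the plot stand far above the line while miR-21 stands below it.

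Striated muscle miRNAs separated heart from every other tissue. The 5 muscle probes on the chip together gave 35.8 to 41.2% of the summed deposited signal of a heart array, against 0.497 to 1.15% in lung, 0.102 to 0.178% in liver, 0.0664 to 0.281% in kidney and 0.127 to 0.277% in spleen. Of these 5 probes 4 were higher in heart in each of the comparisons with a single tissue, where 7% (lung), 18% (liver), 8.5% (kidney) and 20.5% (spleen) of all probes were higher. The median difference of the 5 was 4.48 on the log2 scale, against -0.02 over all 200 probes.

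miR-1 had deposited signals of 3832 and 2827 in klotho(-/-) hearts and 3167 and 3367 in wild-type hearts. On the scaled signal it held the top rank on all 4 heart arrays and therefore the same value, 2078, on each. Its scaled signal was 40.5 to 99.7 in lung, at most 4.66 in liver, 2.21 to 13.3 in kidney and 0.858 to 5.20 in spleen. The groups were far apart, and lung was second. miR-1 was 36.6-fold higher in heart than in lung and at least 208-fold higher than in liver, kidney or spleen, where the signal of 10 was taken as the floor for a dim mean. Against the mean of the 4 tissues the log2 difference was 5.08 ± 0.09 (SE of the fit, adjusted p = 5.14e-18). The highest lung array was wild-type Lung 1, at 99.7, with 40.5 to 46.5 on the other 3 lung arrays. In kidney the wild-type Kidney 1 array had 13.3, with 2.21 to 3.55 on the other 3.

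miR-133a and miR-133b, which restrain proliferation and hypertrophy of muscle cells, followed miR-1 at the next ranks. miR-133a had deposited signals of 3790 and 2217 in klotho(-/-) hearts and 3045 and 3010 in wild-type hearts. Its scaled signal was 1479 on each heart array, against 24.5 to 55.3 in lung and at most 15.4 in liver, kidney and spleen. It was 41.1-fold higher in heart than in lung, and the difference from the mean of the 4 tissues was 4.64 ± 0.07 (adjusted p = 5.17e-19). miR-133b had a scaled signal of 1318 on each heart array, against 22.7 to 46.5 in lung and at most 14.0 in liver, kidney and spleen, a difference of 4.48 ± 0.06 (adjusted p = 4.02e-19). The equal ranks of the 3 brightest probes gave an SD of 0 among scaled heart values, which is a property of the normalization. The SE and adjusted p of these 3 miRNAs inherit it, since tied values add little to the residual spread. For these 3 miRNAs the deposited signals show the spread among hearts.

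miR-208, the cardiac miRNA of the alpha myosin heavy chain gene (mature sequence at chr14:54949072-54949093, minus strand), had scaled signals of 662 and 807 in klotho(-/-) hearts and 577 and 870 in wild-type hearts. Its deposited signals there were 773, 651, 650 and 1042. In lung it lay between 11.5 and 18.2, in liver between 1.79 and 6.61, in kidney between 3.0 and 4.83 and in spleen between 0.567 and 1.35. No array of another tissue came near the lowest heart array. miR-208 was 45.2-fold higher in heart than in lung and at least 72.9-fold higher than in each of the other 3 tissues, and the difference from the mean of the 4 was 3.79 ± 0.07 (adjusted p = 1.33e-17). Lung thus showed a low signal for 4 muscle probes together, with ratios of heart to lung of 36.6 for miR-1, 41.1 for miR-133a, 42.7 for miR-133b and 45.2 for miR-208. The source of the lung signal was not tested.

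miR-206, the miRNA of skeletal muscle that shares a genome neighbourhood with miR-133b, gave no signal in heart. Its scaled signal was at most 2.14 on the heart arrays and at most 3.55 on any other array, and the difference was -0.00 ± 0.02 (adjusted p = 0.956). The reading cannot be told apart from background at this signal. miR-499, which lies in a myosin gene as miR-208 does, had no probe among the 200.

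**Figure D2:**
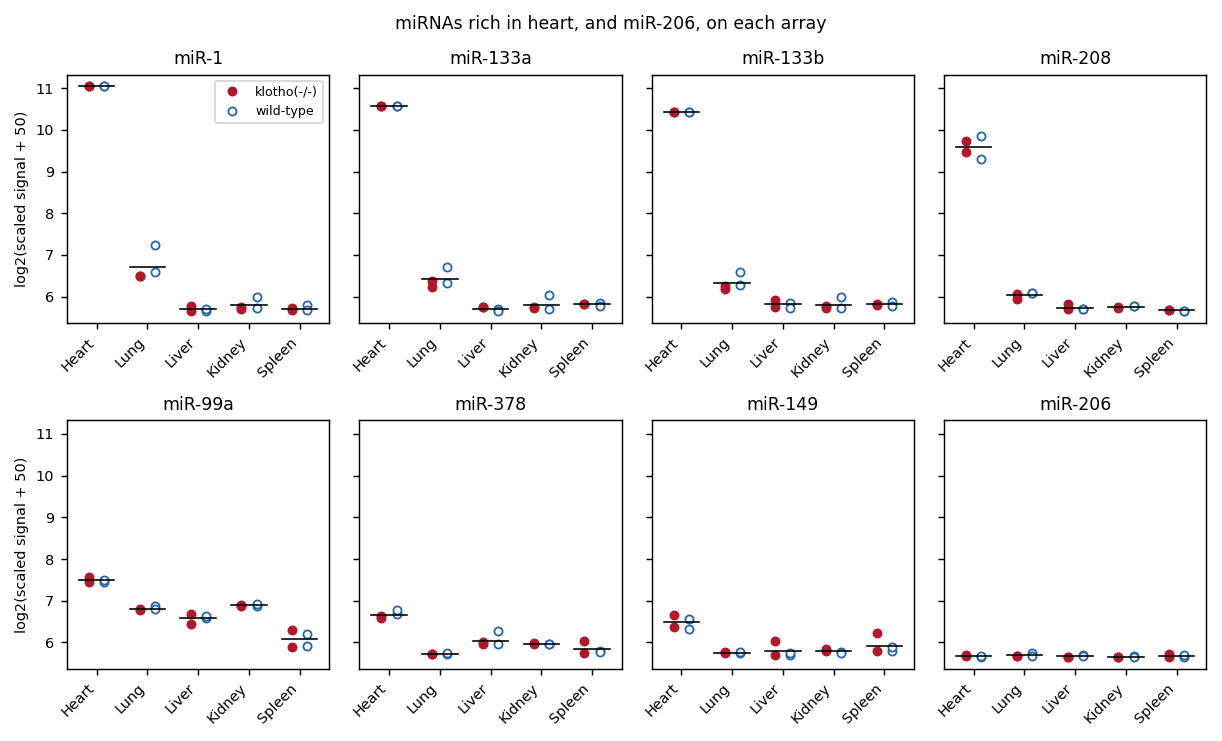
Scaled signal of the 7 miRNAs rich in heart and of miR-206 on each of the 20 arrays, as log2(scaled signal + 50), by tissue, with klotho(-/-) arrays as filled red points, wild-type arrays as open blue points and the mean of 4 arrays as a bar. The panels of the upper row are high in heart with a low second level in lung, miR-99a, miR-378 and miR-149 differ by less than 1 unit on average, and miR-206 is at background in all 5 tissues.

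Beside the muscle miRNAs 3 further miRNAs were rich in heart, at much smaller differences. miR-99a, of a small family with miR-99b and miR-100 that has been tied to growth control through mTOR, had scaled signals of 140 and 124 in klotho(-/-) hearts and 124 and 131 in wild-type hearts. In the other tissues it ranged over 59.0 to 67.1 in lung, 36.6 to 51.8 in liver, 67.1 to 72.0 in kidney and 9.35 to 28.3 in spleen. The heart arrays lay close together and above all others. miR-99a was 1.88-fold higher than in kidney, the nearest tissue, and 7.29-fold higher than in spleen, and the difference from the mean of 4 was 0.90 ± 0.07 (adjusted p = 1.05e-08). On the deposited signal, which was not scaled between arrays, the heart arrays overlapped with the others.

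miR-378, which lies in an intron of the metabolic coactivator gene Ppargc1b and is known from tissues rich in mitochondria, had scaled signals of 46.5 and 48.8 in klotho(-/-) hearts and 51.8 and 59.0 in wild-type hearts. Liver came next with 12.0 to 26.8 and kidney followed with 12.6 to 13.3, whereas spleen reached 15.4 and lung stayed at 3.72 or less. The ratio of means was 3.18 over liver, 4.03 over kidney and at least 5.15 over lung and over spleen. The difference from the mean of 4 was 0.77 ± 0.06 (adjusted p = 1.05e-08), and the heart arrays stood above the others on the deposited signal as well.

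miR-149 (chr1:92850381-92850403, plus strand) was dimmer and more variable. It had 50.3 and 32.3 in klotho(-/-) hearts and 44.9 and 30.5 in wild-type hearts, against at most 25.2 on any other array. That highest array was klotho(-/-) Spleen 2, followed by klotho(-/-) Liver 1 at 15.4, and all other arrays were under 10. The difference from the mean of 4 was 0.66 ± 0.07 (adjusted p = 1.19e-06). As a ratio of mean scaled signals, without the offset, heart was at least 3.95-fold higher than each of lung, liver and kidney, whose means were under 10. Under scaling to the probes detected on all arrays it passed (0.42, adjusted p = 0.000624) but was no longer rich, since the heart arrays overlapped with the others.

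Just outside the size rule stood miR-384 and miR-134, which are known mainly from neurons. miR-134 had 13.3 and 11.1 in klotho(-/-) hearts and 17.0 and 18.2 in wild-type hearts, and at most 3.65 on the other 16 arrays. miR-384 had 10.3 and 9.62 in klotho(-/-) hearts and 18.8 and 19.7 in wild-type hearts, and at most 3.5 elsewhere. All 4 heart arrays were above all others for both, although near the background. Their differences, 0.32 ± 0.02 (adjusted p = 1.67e-09) for miR-134 and 0.33 ± 0.03 (adjusted p = 1.93e-08) for miR-384, are reduced by the offset of 50 that was added before log2. Under scaling to the probes detected on all arrays miR-134 and miR-384 still passed, but their heart arrays overlapped with the others. Just inside the rule were miR-149 and miR-378. miR-128a, another miRNA of neurons, passed against each of the 4 tissues with differences of 0.08 to 0.20, but its heart arrays, at 6.84 to 12.6, overlapped with the others. With these, 10 miRNAs (5%) were higher in heart than in each of the 4 tissues.

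Of the 4 miR-99 and miR-125 probes 3 were higher in heart than the mean of 4, where 13% of all probes were, with a median of 0.66, and 2 were under median scaling. All 4 were higher than in liver and than in spleen, where 18% and 20.5% of all probes were. miR-125b, a miRNA of differentiated and mesenchymal cells, had 251 and 226 in klotho(-/-) hearts and 251 and 213 in wild-type hearts. Lung, at 183 to 213, did not pass against heart (0.21 ± 0.15 on the log2 scale, adjusted p = 0.440), whereas kidney had 104 to 149, liver 50.3 to 61.3 and spleen 53.6 to 157. The difference from the mean of 4 was 0.89 ± 0.12 (adjusted p = 1.27e-05), and miR-125b met the rule for rich under the reduced normalization and under scaling to the probes detected on all arrays. miR-125a gave 0.43 ± 0.09 (adjusted p = 0.00128) and lost the call under median scaling (0.40, adjusted p = 0.0782), while miR-99b gave 0.10 ± 0.06 and did not pass (adjusted p = 0.232).

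The clusters of miR-23, miR-27 and miR-24, which are expressed from 2 loci and are known from endothelial and muscle cells, gave 3 of 5 members higher in heart, where 13% of all probes were, and none lower, with a median of 0.37. Under each of the other 3 scalings all 5 passed, and the median was 0.65 under the reduced normalization. miR-24 had 807 and 751 in klotho(-/-) hearts and 870 and 807 in wild-type hearts, against 708 to 932 in lung, 577 to 708 in kidney, 338 to 439 in liver and 295 to 511 in spleen. It did not pass against lung (-0.01 ± 0.13, adjusted p = 0.983) and was higher than in liver by 1.02 ± 0.13 (adjusted p = 3.48e-06). Under the reduced normalization miR-24 met the rule for rich, as did miR-424, which was named after its values were seen. miR-27a was likewise higher, at 0.52 ± 0.11 against the mean of 4 (adjusted p = 0.00135). The call of miR-23b, at 0.37 ± 0.12 (adjusted p = 0.0205), was lost without the wild-type Heart 1 array (0.32, adjusted p = 0.0952), without the wild-type Heart 2 array (0.32, adjusted p = 0.0902) and without the liver arrays (0.20, adjusted p = 0.317).

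Endothelial miR-126-3p, which maintains vessel integrity and comes from the gene Egfl7, had 577 and 511 in klotho(-/-) hearts and 511 and 662 in wild-type hearts. Lung arrays were all higher, at 1318 to 2078, and liver and kidney arrays were all lower, at 237 to 295 in both, with spleen at 79.0 to 177. Heart was 3.08-fold lower than lung (log2 difference -1.52 ± 0.18, adjusted p = 2.77e-06) and 2.15-fold higher than kidney (0.97 ± 0.18, adjusted p = 0.000262). The order of the tissues was lung, heart, then liver and kidney together, then spleen. The other strand of its precursor, miR-126-5p, showed the same order on the heart side of the comparison, with 11.5 to 16.6 in heart, 16.8 to 30.5 in lung and at most 6.84 elsewhere. Both passed against the mean of 4, but without the spleen arrays miR-126-3p no longer did (0.15, adjusted p = 0.361), and miR-126-5p lost the call under median scaling (0.12, adjusted p = 0.122). In whole tissue, fewer cells of a type and less RNA per cell cannot be told apart.

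miR-22, abundant in heart and skeletal muscle and tied to cardiac hypertrophy, had 932 on 3 heart arrays and 807 on wild-type Heart 1. Liver was higher, at 1479 on all 4 arrays, and kidney overlapped with heart, at 606 to 1318, whereas lung had 360 to 418 and spleen 183 to 295. The difference from liver was -0.69 ± 0.17 (adjusted p = 0.00426) and from lung 1.09 ± 0.17 (adjusted p = 9.37e-05). Against the mean of 4 it was 0.58 ± 0.14 (adjusted p = 0.00320), a call that was lost without the lung arrays (0.20, adjusted p = 0.462) or without the spleen arrays (0.18, adjusted p = 0.352).

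The miR-30 family, which is high in heart and kidney and has been described to restrain connective tissue growth factor, divided by tissue. All 5 members were higher in heart than in spleen, with a median of 1.26, and 4 of 5 were lower in heart than in kidney, with a median of -1.02, where 20.5% of all probes were higher than in spleen and 18% were lower than in kidney. miR-30e had 183 and 183 in klotho(-/-) hearts and 213 and 237 in wild-type hearts, against 269 to 402 in kidney, 118 to 124 in lung, 79.0 to 111 in liver and 51.8 to 67.1 in spleen. Its arrays formed separate levels with kidney first and heart second. Against the mean of 4 tissues only miR-30e (0.49 ± 0.07, adjusted p = 3.33e-05) and miR-30b (0.41 ± 0.09, adjusted p = 0.00199) passed, and miR-30b did not pass under median scaling (0.45, adjusted p = 0.0711) or without the spleen arrays (0.13, adjusted p = 0.320). The count of members higher in heart was 5 of 5 under scaling to the probes detected on all arrays, 3 under the reduced normalization and 1 under median scaling. Of all probes 13% were higher under quantile normalization of all probes, and 12 to 32 of the probes tested were over all alternative runs.

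The call of the smooth muscle miRNAs depended on the scaling. That of miR-145 also depended on the klotho(-/-) Spleen 1 array, without which it passed against the mean of 4. miR-143 and miR-145, which are made from 1 transcript in smooth muscle cells and fibroblasts, gave 0.17 ± 0.19 (adjusted p = 0.571) and 0.31 ± 0.17 (adjusted p = 0.199) against the mean of 4. Both were higher in heart than in liver, by 1.33 ± 0.24 (adjusted p = 0.000255) and 1.65 ± 0.22 (adjusted p = 7.58e-06). Both were lower than in spleen, by -0.90 ± 0.24 (adjusted p = 0.00672) and -0.71 ± 0.22 (adjusted p = 0.0160). The summed scaled signal of the pair on an array overlapped, however, at 892 to 1109 in heart and 1022 to 3557 in spleen. Under the reduced normalization both passed, at 0.56 (adjusted p = 0.00129) and 0.63 (adjusted p = 0.00118), as they did under scaling to the probes detected on all arrays, at 0.68 (adjusted p = 0.000530) and 0.74 (adjusted p = 5.58e-05). Under median scaling miR-145 passed (0.77, adjusted p = 0.0273) and miR-143 did not (0.70, adjusted p = 0.0532).

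**Figure D3:**
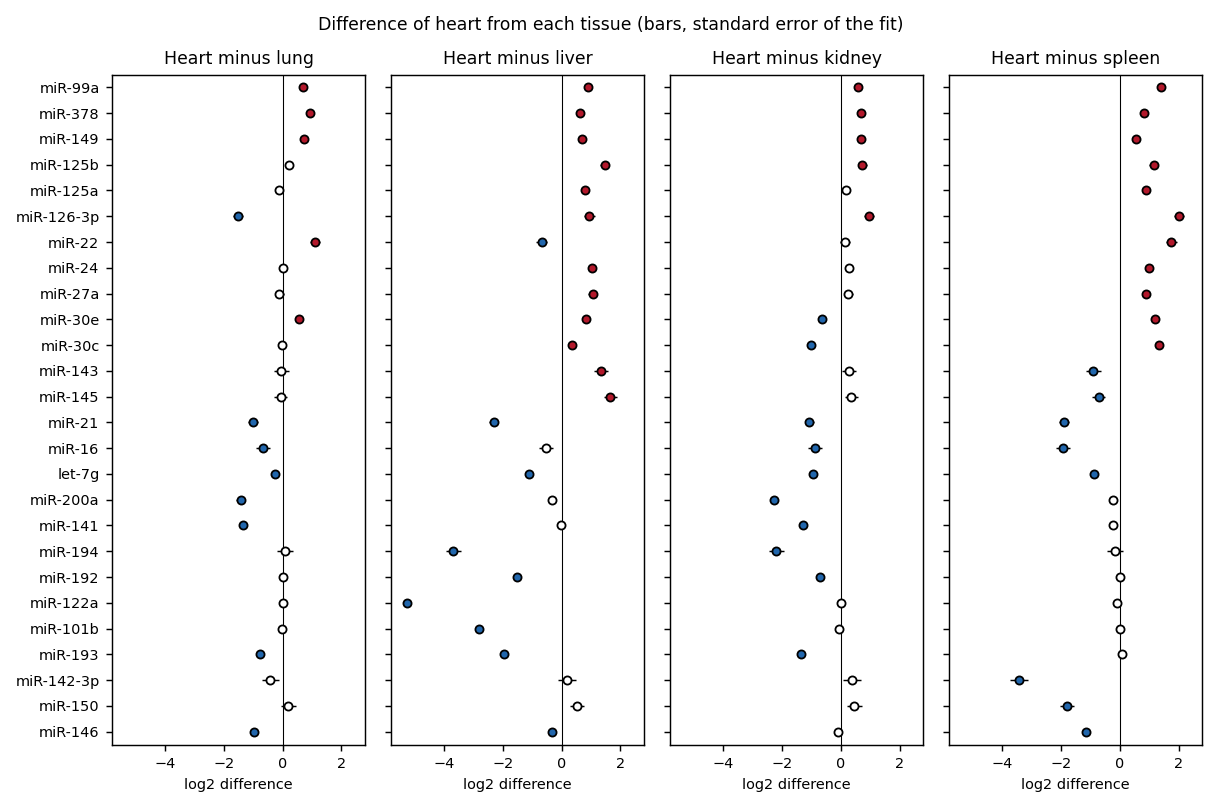
Difference of heart from lung, liver, kidney and spleen for 26 named miRNAs, as log2 differences of log2(scaled signal + 50) with the SE of the fit as bars. Filled points passed the test (red, higher in heart, blue, lower), open points did not, and miR-21 is lower than in each of the 4 tissues whereas miR-122a and miR-101b differ from liver alone.

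Among the miRNAs low in heart, miR-21 was poor in heart under all 4 scalings. This miRNA, an abundant one of proliferating and fibrotic tissue that in the heart is known from fibroblasts, had 111 and 118 in klotho(-/-) hearts and 111 and 111 in wild-type hearts. In kidney it had 251 to 338, in lung 226 to 360, in spleen 418 to 708 and in liver 577 to 932. No array of another tissue reached down to the heart arrays, and the fold was 2.49 below lung, 2.59 below kidney, 4.98 below spleen and 6.86 below liver. The difference from the mean of 4 was -1.57 ± 0.13 (adjusted p = 2.47e-08), and it was -1.32 (adjusted p = 3.35e-07) under the reduced normalization and -1.27 (adjusted p = 1.78e-07) under scaling to the probes detected on all arrays. miR-21 held rank 38 or 39 of 200 on the heart arrays, against rank 4 to 26 on the other 16. On the deposited signal, which follows the total signal of an array, the heart arrays had 89 to 128 and overlapped with the others.

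miR-16, a miRNA of the miR-15 family that restrains the cell cycle, was the other miRNA that met the rule for poor. It had 269 and 295 in klotho(-/-) hearts and 295 and 309 in wild-type hearts, against 338 to 554 in liver, 466 to 511 in lung, 490 to 606 in kidney and 606 to 2078 in spleen. The difference from the mean of 4 was -1.0 ± 0.18 (adjusted p = 0.000253). It was -0.55 (adjusted p = 0.000388) under the reduced normalization and did not pass under median scaling (-0.26, adjusted p = 0.537) or under scaling to the probes detected on all arrays (-0.27, adjusted p = 0.133). Of the 5 members of the miR-15 family on the chip, miR-16 and miR-15a were lower in heart, where 21% of all probes were. miR-497 was higher, where 13% of all probes were, and miR-15b and miR-195 did not pass, with a family median of -0.22. miR-15a did not pass under median scaling (-0.29, adjusted p = 0.342) or under the reduced normalization (-0.29, adjusted p = 0.138). It passed under scaling to the probes detected on all arrays (-0.29, adjusted p = 0.0239). The call of miR-497, at 0.19 ± 0.06 (adjusted p = 0.0118), was lost without the wild-type Heart 2 array (0.17, adjusted p = 0.0619), and its difference was 0.01 under median scaling (adjusted p = 0.956) and 0.01 without the liver arrays (adjusted p = 0.958).

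The let-7 family, which promotes differentiation and is among the brightest families of adult tissues, gave 6 of 8 members lower in heart, where 21% of all probes were, and none higher, with a median of -0.64. let-7a had 870 and 870 in klotho(-/-) hearts and 932 and 606 in wild-type hearts, against 1318 to 2078 in lung, 932 to 2078 in kidney, 870 to 2078 in spleen and 932 to 1318 in liver. Heart was at the low end but overlapped with liver, kidney and spleen. This direction rested on the scaling, and over all alternative runs 6 to 54 of the probes tested were lower. With the 5 tissue probes left out before normalization 2 of 8 members were lower and the median was -0.18, under scaling to the probes detected on all arrays 1 was lower and the median was -0.08, and under median scaling none was (median -0.08). let-7a itself was -0.76 ± 0.22 (adjusted p = 0.0117) under quantile normalization of all probes, -0.05 (adjusted p = 0.782) under the reduced one, and -0.60 without the wild-type Heart 2 array (adjusted p = 0.0755).

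let-7g kept more of its difference. It had 226 and 251 in klotho(-/-) hearts and 269 and 295 in wild-type hearts, against 295 to 338 in lung and 439 to 662 in kidney, spleen and liver. The difference was -0.80 ± 0.06 (adjusted p = 1.93e-08), -0.49 (adjusted p = 8.06e-06) under the reduced normalization, -0.21 (adjusted p = 0.00619) under scaling to the probes detected on all arrays and -0.20 under median scaling (adjusted p = 0.602). With miR-21 and let-7d it was lower in heart than in each of the 4 tissues, as were 1.5% of all probes. miR-26a and miR-29a were likewise lower by -0.58 ± 0.16 (adjusted p = 0.0101) and -0.50 ± 0.10 (adjusted p = 0.000573), and neither passed under the reduced normalization (-0.16 with adjusted p = 0.347, and -0.20 with adjusted p = 0.131). miR-26a also lost its call without the wild-type Heart 1 array (-0.48, adjusted p = 0.0526).

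**Figure D4:**
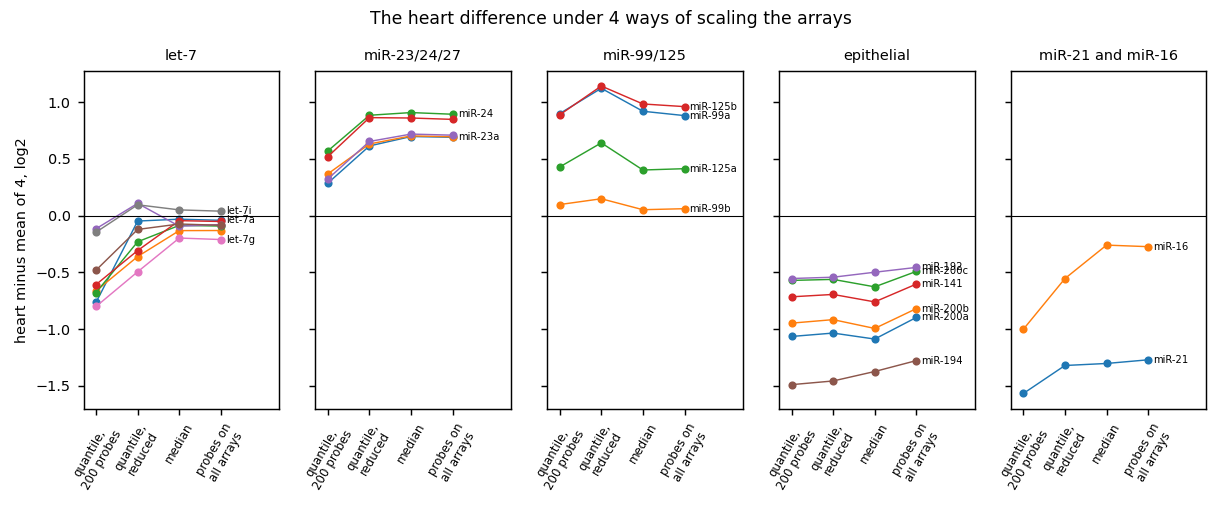
Difference of heart from the mean of the other 4 tissues on the log2 scale for 5 groups of miRNAs under 4 ways of scaling, from left to right quantile normalization of 200 probes, reduced normalization without 5 probes, equal medians and equal means over the probes detected on all arrays. Lines join the values of 1 miRNA, and the let-7 lines and miR-16 move toward 0, those of miR-24 and its cluster partners move away from 0, and those of the epithelial miRNAs and miR-21 stay on the same side.

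Epithelial miRNAs were low or at background in heart. Of 8 on the chip, 7 were lower in heart than the mean of 4, where 21% of all probes were, and none was higher. The median was -0.64, and 7 were lower under each of the other 3 scalings as well. All 7 were lower than in kidney, where 18% of all probes were, and 4 of 8 were lower than in lung, where 15% were. Against liver 3 of 8 were lower and against spleen 0 were, where 20% of all probes were lower in each comparison. miR-200a, which keeps epithelial cells epithelial by acting on the ZEB repressors, had 1.71 and 5.46 in klotho(-/-) hearts and 1.65 and 1.73 in wild-type hearts, against 183 to 213 in kidney, 82.4 to 104 in lung, 11.8 to 28.3 in liver and 2.93 to 42.4 in spleen. It was at least 20.2-fold lower in heart than in kidney and at least 9.24-fold lower than in lung. The highest spleen array was klotho(-/-) Spleen 1, the array with the high miR-375. miR-141, with the same seed, had at most 4.66 in heart, 72.0 to 95.4 in lung and 67.1 to 91.0 in kidney. The members with the other seed of the family, miR-200b and miR-200c, had at most 5.20 and 3.05 in heart and were lower by -0.95 ± 0.14 (adjusted p = 5.54e-05) and -0.57 ± 0.11 (adjusted p = 0.000573). Under scaling to the probes detected on all arrays miR-200b met the rule for poor.

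miR-194 and miR-192, which start 199 bases apart on chromosome 19 and are known from liver, kidney and gut epithelium, followed another pattern. miR-194 had 14.0 and 18.8 in klotho(-/-) hearts and 9.81 and 10.9 in wild-type hearts, overlapping with lung at 6.42 to 12.0, and far under kidney at 124 to 402 and liver at 606 to 870. The ratio was 57.7-fold below liver and 19.4-fold below kidney. The difference from lung was 0.08 ± 0.26 (adjusted p = 0.880), and that from the mean of 4 was -1.49 ± 0.21 (adjusted p = 1.92e-05). miR-192 was under 5 on every heart array, against 87.6 to 124 in liver and 29.3 to 48.8 in kidney.

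Hepatocyte miR-122a, which makes up a large part of the miRNA of liver cells, had 7.04 and 3.65 in klotho(-/-) hearts and 3.84 and 6.42 in wild-type hearts, against 2078 on each liver array. miR-122a held the top rank on every liver array, so its tied values there add little to the spread behind its SE and adjusted p. It was at least 208-fold lower than in liver and did not pass against lung, kidney or spleen. miR-101b showed the same pattern at a lower level, with 21.4 to 30.5 in heart, 466 to 511 in liver and 17.0 to 33.5 in lung, kidney and spleen. Their differences from the mean of 4, -1.33 ± 0.05 (adjusted p = 6.36e-14) and -0.72 ± 0.06 (adjusted p = 1.18e-08), vanished without the liver arrays (-0.03 with adjusted p = 0.691, and -0.02 with adjusted p = 0.854). miR-193 was lower in heart, at 10.8 to 29.3, than in liver, kidney and lung, at 59.0 or more, and overlapped with spleen, at 6.84 to 23.8.

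Leukocyte miRNAs set heart apart from spleen alone. All 4 on the chip were lower in heart than in spleen, where 20% of all probes were, with a median of -2.30, and none passed against lung, liver or kidney. miR-142-3p, made in all blood cell lineages, had 9.62 and 26.8 in klotho(-/-) hearts and 53.6 and 26.1 in wild-type hearts, against 251 to 1318 in spleen and 7.45 to 79.0 in lung, liver and kidney. It was 31.8-fold lower in heart than in spleen. Its difference from the mean of 4, -0.82 ± 0.23 (adjusted p = 0.0102), changed to 0.05 without the spleen arrays (adjusted p = 0.765) and no longer passed without the wild-type Heart 2 array (-0.73, adjusted p = 0.0501). miR-142-5p lost its call likewise without wild-type Heart 2 (-0.71, adjusted p = 0.0619) and without the spleen arrays (-0.09, adjusted p = 0.0827). miR-146 and miR-146b, which dampen inflammatory signalling, were lower in heart than in lung, liver and spleen and did not pass against kidney. miR-146 had 7.74 and 8.32 in klotho(-/-) hearts and 28.3 and 17.0 in wild-type hearts, against 79.0 to 111 in spleen and 57.9 to 104 in lung, at -0.64 ± 0.07 against the mean of 4 (adjusted p = 2.43e-06).

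**Figure D5:**
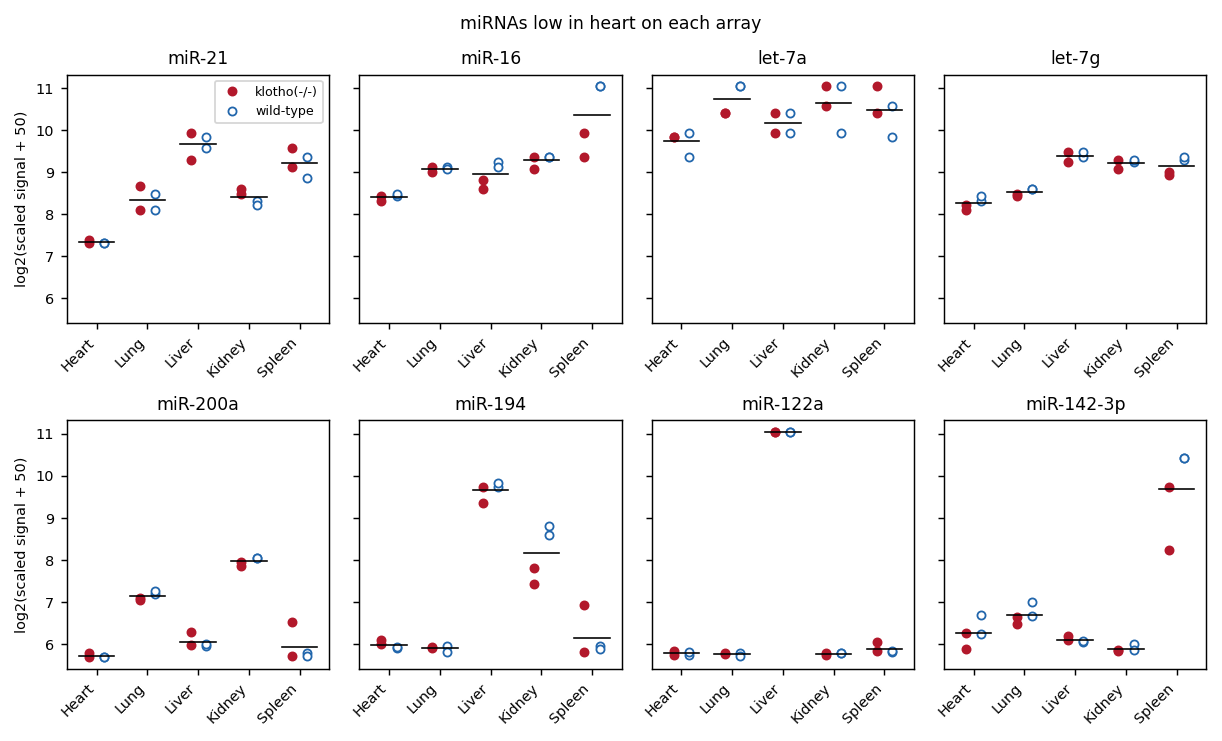
Scaled signal of 8 miRNAs that were low in heart on each of the 20 arrays, as log2(scaled signal + 50), by tissue, with klotho(-/-) arrays as filled red points, wild-type arrays as open blue points and the mean of 4 arrays as a bar. miR-21 is lowest in heart on every array, and let-7a overlaps between heart and other tissues. miR-200a and miR-122a are near background in heart and high in kidney and in liver. miR-194 and miR-142-3p are low in heart and high in liver and in spleen, and miR-142-3p overlaps between heart and lung, liver and kidney.

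Further lists gave fewer differences. The fibroblast and matrix list held 6 probes, of which miR-21 and miR-29a were lower in heart and miR-199a was higher, with a median of -0.18, where 21% of all probes were lower and 13% were higher. miR-199a had 87.6 to 104 in heart, 111 to 140 in lung and at most 118 in the other tissues (0.42 ± 0.12, adjusted p = 0.0101), and it did not pass without the wild-type Heart 2 array (0.35, adjusted p = 0.0619) or without the liver arrays (0.24, adjusted p = 0.234). Proliferation-promoting miRNAs of the miR-17 cluster and its paralogous clusters gave 2 of 10 lower in heart, miR-19b and miR-20a, where 21% of all probes were, and 9 of 10 lower than in spleen, where 20% were. Of the 10, 6 were lower than the mean of 4 under scaling to the probes detected on all arrays. Under the reduced normalization 1 was, and none was under median scaling. Over all alternative runs 6 to 54 of the probes tested were lower. The call of miR-20a (-0.47 ± 0.17, adjusted p = 0.0395) was lost (adjusted p of 0.0501 to 0.141) without any of 10 arrays, namely klotho(-/-) Heart 1, both wild-type Heart arrays, klotho(-/-) Lung 1, both arrays numbered 2 of liver, both klotho(-/-) Kidney arrays, wild-type Kidney 1 and wild-type Spleen 1. miR-34b and miR-34c, miRNAs of multiciliated cells, were lower in heart than in lung by -1.35 ± 0.09 (adjusted p = 1.59e-09) and -1.13 ± 0.06 (adjusted p = 7.90e-11) and did not pass against liver, kidney or spleen. miR-10b was lower in heart than in kidney alone, at 6.42 to 11.5 against 91.0 to 99.7 (-1.34 ± 0.08, adjusted p = 2.33e-10). The erythroid miR-144 had 53.6 to 95.4 in heart and 12.6 to 1479 in spleen and did not pass (adjusted p = 0.949).

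As a whole the heart profile was nearest to that of lung. Across the 138 probes with signal, Pearson's r of the tissue means on the log2 scale was 0.798 for heart and lung, 0.728 for heart and kidney, 0.614 for heart and spleen and 0.595 for heart and liver. Without the 4 muscle probes that gave signal it was 0.943, 0.915, 0.790 and 0.766 in the same order. Spearman's rank correlation without these probes was 0.847 for lung, 0.813 for kidney, 0.812 for spleen and 0.769 for liver. By rank, kidney and spleen were thus nearly equal. These are descriptions across probes, which share chip, scaling and total signal.

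The heart profile was also compared between the genotypes. In klotho(-/-) mice 21 miRNAs were higher in heart than the mean of 4 (10.5%) and 29 were lower (14.5%), and in wild-type mice 27 were higher (13.5%) and 38 were lower (19%). Both genotypes shared 17 of the higher ones, 81.0% of the klotho(-/-) and 63.0% of the wild-type list, and 24 of the lower ones, 82.8% and 63.2% of these lists, and no miRNA passed in opposite directions. miR-1 was higher by 5.14 in klotho(-/-) and 5.02 in wild-type mice, miR-208 by 3.81 and 3.76 and miR-21 lower by -1.62 and -1.52 in the same order. The difference of the contrast between genotypes passed for 1 of 200 miRNAs (0.5%), and 15 (7.5%) had an unadjusted p under 0.05. That miRNA was miR-384, with scaled signals of 10.3 and 9.62 in klotho(-/-) hearts and 18.8 and 19.7 in wild-type hearts and a difference of -0.19 ± 0.02 (adjusted p = 0.000105). On the deposited signal it had 15 and 9 in klotho(-/-) hearts and 15 and 15 in wild-type hearts, so that the genotypes overlapped. The count for the genotype difference was 10 without klotho(-/-) Spleen 2, 4 without klotho(-/-) Liver 1, 3 without klotho(-/-) Heart 1, wild-type Heart 1, wild-type Liver 1 or wild-type Liver 2, and 2 without klotho(-/-) Lung 1, klotho(-/-) Liver 2 or wild-type Kidney 1.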

How the data were processed

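Small RNA of each tissue had been fluorescently labelled, with 1 colour per array, for Genopal-MICM chips. The authors deposited 2 tables of fluorescence intensity for 200 probes on 20 arrays, the first not background-subtracted and the second subtracted by an array constant, rounded and set to a floor of 1 to 3. Image software was not given in the sources used here. From the first table the background was corrected by normexp in limma 3.58.1 (R 4.3.3), arrays were quantile-normalized together, and log2 was taken after adding 50, which draws differences of dim miRNAs toward 0. A linear model with tissue and genotype (14 residual degrees of freedom, eBayes with trend, two-sided) gave heart minus the mean of lung, liver, kidney and spleen and heart minus each tissue. A model with 10 groups gave the difference between genotypes. Means under a signal of 10, at which probes were taken as dim, were set to 10 in a ratio of means and reported as a bound. No probe was left out, and 62 were under 10 on average in every tissue.

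The text names miRNAs rich or poor in heart, those with the largest difference from each tissue, those next to the size rule, the smallest p for genotype, and members of lists of families and cell type markers. Members and lists were chosen with earlier results of these data known. Each group had 2 arrays, so p-values rest on the spread pooled over tissues, and the number of arrays limits the precision. Array numbers are those of the labels, and the study describes different individual mice within a group. The model was tested on simulated data. Alternatives were other scalings, offsets, filters, models, tables, left-out tissues and arrays, and a replicate block, and the reduced normalization was added after the data were seen. Chip names are older and carry no arm for most miRNAs. They were matched by name to RefSeq (GRCm38.p6), with the arm that the older name stands for, and all 29 names looked up had a mature sequence.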

Additional observations from a re-analysis of the deposited data

Results flagged for a closer look

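Within the 4 heart arrays, the gap of the highest or lowest array to its neighbour was large against the whole range for 5 of 68 named miRNAs. Chance marks about 1 in 20 such groups of untied values. Quantile normalization ties the values of equal ranks, so that rate is no yardstick for this count. miR-22 had a scaled signal of 807 on wild-type Heart 1 and 932 on the other 3. miR-27a had 751 on wild-type Heart 2 and 606 on the other 3, and miR-21 had 118 on klotho(-/-) Heart 2 and 111 on the other 3, where equal ranks make the other values identical. let-7a had 606 on wild-type Heart 2, against 870 to 932 on the others. miR-200a had 5.46 on klotho(-/-) Heart 2, against 1.65 to 1.73 on the others, all near background. The difference of heart from the other tissues differed between klotho(-/-) and wild-type mice for miR-384, by -0.19 on the log2 scale (adjusted p = 0.000105, limma).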

How the results depend on the processing

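Among 51 named miRNAs that passed, 12 kept their call under every alternative run, 40 never changed direction and 42 kept their call without each single array. Leaving out 1 array gave 22 to 31 higher, 35 to 46 lower, 7 to 8 rich and 2 to 3 poor miRNAs, and 1 to 10 with a genotype difference. With no scaling 26 were lower, 0 were poor, 9 were higher and 98 lower than in lung, and 71 higher and 5 lower than in liver. In the same run 13 were lower than in spleen and 0 differed by genotype. Total signal differed between tissues, and its part in these counts was not tested. Without scaling the differences became 0.49 for miR-30d, -0.0926 for miR-497, 0.16 for let-7a, 0.0210 for let-7b and 0.0897 for let-7c. They became 0.13 for let-7d, 0.11 for let-7f, 0.13 for miR-29a and 0.12 for miR-26a. Median scaling gave 1 poor, 18 lower than in lung and 3 by genotype. Scaling on the probes detected on all arrays gave 28 higher than in kidney, 63 lower than in liver, 0 by genotype, and 0.38 for miR-30d and 0.32 for miR-30a-5p. The offset of 100 gave 2 by genotype, and the second table gave 1 poor and 2 by genotype. A minimum mean of 30 left 11 higher than in kidney and 0 by genotype. Without lung 6 were poor, and miR-34b and miR-34c turned to 0.0712 and 0.0652. Without liver 3 differed by genotype. Without kidney miR-30d was 0.29. Without spleen 6 were poor, and miR-30c, miR-142-3p and miR-150 turned to -0.24, 0.0462 and 0.42. With no tissue term 12 were higher, 6 lower and 1 poor. The klotho(-/-) arrays alone gave 17 higher, 25 lower and 6 poor, and the wild-type arrays alone 6 poor. These runs had fewer arrays that could overlap, and whether this raised the count was not tested. The methods' t-test gave 17 higher and 25 lower unadjusted, and 12, 7 and 1 poor after Benjamini-Hochberg. A minimum size of 1 left 4 rich. The reduced normalization, added after seeing the data, gave 1 poor, 25 lower than in spleen and 2 by genotype. The causes of these changes were not tested. With mouse as replicate block 26 were higher and 41 lower. Deviations of heart and other tissues with the same number and genotype correlated at -0.39 to 0.42. These do not settle whether tissues with 1 number came from 1 mouse, and the numbers were not used as pairs. miRNAs with a signal under 10 have no order among tissues.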
